A study of Mus musculus with 8 samples.

Results

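Leukocyte integrins were described here through 9 genes, each named by its symbol, and every probe set annotated to them was used: 24 of the 45037 probe sets tested, and 9 of the 18193 genes with a probe set of a single symbol. The genes encode 4 integrin alpha subunits (Itgam, Itgal, Itgax and Itga4), 3 beta subunits (Itgb2, Itgb1 and Itgb7) and 2 cytoplasmic proteins that switch integrins on (Fermt3, which encodes kindlin-3, and Tln1, which encodes talin-1). Itgam encodes Cd11b, the surface protein on which the cells had been sorted.

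The samples were bone marrow cells sorted by FACS with a fluorescent antibody to Cd11b, and 1 Affymetrix mouse array was hybridised with biotin-labelled cRNA from 2.5 µg of total RNA of each. The 4 experimental samples had the genotype Mxcre;E2F1-/-2-/-3f/f: null for E2F1 and E2F2, floxed for E2F3, and carrying Mx-Cre, a Cre transgene switched on by interferon. The 4 control samples had the genotype E2F1-/-2+/+3f/f: likewise null for E2F1 and floxed for E2F3, with intact E2F2 and no Cre. All mice were 8 weeks old, on a mixed FVB and C57BL6 background, and had been injected 5 times with 250 µg pIpC, a synthetic double-stranded RNA that induces interferon, on alternate days, with the last given 24 h before they were killed. Cre, the loss of E2F2 and the floxed E2F3 acted on by Cre differ between the groups together and cannot be told apart. The labels do not say whether each sample came from a separate animal, so the p-values here reflect only sample-to-sample spread, part of which may be technical.

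Integrins are adhesion receptors made of 1 alpha and 1 beta chain. Itgb2 pairs with Itgam to form Mac-1, with Itgal to form LFA-1 and with Itgax to form the receptor known from dendritic cells as CD11c/CD18. Itga4 pairs with Itgb1 to form VLA-4, which holds progenitors and lymphocytes to Vcam1 on marrow stroma, or with Itgb7 to form the gut-homing receptor that binds Madcam1. Talin-1 and kindlin-3 bind the cytoplasmic tails of the beta chains and bring the receptor from a low-affinity to a high-affinity state, in neutrophils as in platelets.

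All values are log2 values after RMA, so a difference of 1 unit is a doubling. Differences are experimental minus control, with the moderated standard error (SE) of limma, n = 4 arrays per group, and p-values adjusted by Benjamini-Hochberg over all 45037 probe sets, with a threshold of 0.05. Levels of different probe sets are not comparable with each other. Array medians lay between 5.01 and 5.04. The targeted gene E2f2 read 7.06, 7.40, 7.11 and 7.47 at 1455790_at in experimental arrays, against 7.91, 7.82, 7.76 and 8.19 in control arrays (-0.66 ± 0.13, adjusted p = 0.0351), with no overlap. Its other probe set, 1436434_at, averaged 9.31 ± 0.21 in experimental arrays and 9.85 ± 0.28 in control arrays (SD, n = 4 each; difference -0.55 ± 0.16, adjusted p = 0.107), so signal remained in the samples labelled null. E2f1, null by label in both groups, averaged 7.44 ± 0.54 in experimental arrays and 6.86 ± 0.16 in control arrays at its brightest probe set 1417878_at, above the array medians (SD; 0.58 ± 0.23, adjusted p = 0.236). E2f3 at its brighter probe set 1434564_at differed by 0.29 ± 0.11 (adjusted p = 0.201). The position of these probes on the deleted genes was not analysed here, so they do not check the genotypes. The sample codes come in 2 styles that each hold 2 arrays of both groups (replicates 1 and 2, and replicates 3 and 4), and the values within each style are plotted for all 24 probe sets and given in the text for those described most fully. For the actin control probe sets, whose 3'/5' log2 ratio reflects RNA integrity, values were 0.34 to 0.54 in experimental arrays and 0.27 to 0.32 in control arrays. The same ratio for Gapdh overlapped between the groups, at -0.16 to 0.03 in experimental arrays and -0.14 to -0.09 in control arrays, and the part of RNA integrity in the results was not tested.

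Of the 9 genes, 7 had a promoter sequence in the RefSeq table of GRCm38.p6, whose windows were trimmed here to the 250 bases before the start site. The 3 shown are those of the sort marker and of the 2 genes with the lowest adjusted p among the 9. Capitals mark GAGGAA or its reverse complement TTCCTC, a core recognised by the myeloid factor PU.1, which is known to drive Itgam.
Itgam, chr7:128062390-128062639, plus strand: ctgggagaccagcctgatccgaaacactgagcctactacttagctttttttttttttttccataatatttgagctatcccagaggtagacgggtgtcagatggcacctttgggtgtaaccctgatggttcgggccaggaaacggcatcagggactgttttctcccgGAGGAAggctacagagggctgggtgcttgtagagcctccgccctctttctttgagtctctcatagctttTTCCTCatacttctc
Fermt3, chr19:7019470-7019719, minus strand: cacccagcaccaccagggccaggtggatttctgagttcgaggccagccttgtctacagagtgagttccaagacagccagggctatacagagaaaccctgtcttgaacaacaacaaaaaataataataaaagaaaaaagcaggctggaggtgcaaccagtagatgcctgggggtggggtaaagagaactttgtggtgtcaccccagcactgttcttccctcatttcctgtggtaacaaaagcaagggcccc
Tln1, chr4:43562584-43562833, minus strand: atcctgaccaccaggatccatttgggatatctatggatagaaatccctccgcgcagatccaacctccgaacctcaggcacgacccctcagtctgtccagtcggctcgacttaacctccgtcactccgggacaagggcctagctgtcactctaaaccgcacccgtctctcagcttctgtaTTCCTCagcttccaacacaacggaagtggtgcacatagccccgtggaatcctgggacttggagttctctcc
These letters occurred in 3 of the 7 windows, beginning 84 and 15 bases before the start site of Itgam, 71 bases before that of Tln1 and 9 bases before that of Itgb1, against 23.3% of the 32851 windows of the table. The letters TTTNNCGC, in which N is any base and which include E2F consensus sites, were found on either strand in 0 of the 7 windows, against 4.28% of all windows. Such matches are a description of the letters and not of binding.

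Across the 24 probe sets, 1 passed the threshold, Tln1 1436042_at, lower in experimental samples, and 0 were higher, against 1.55% of all probe sets called lower and 1.03% called higher (2.58% in either direction). At an unadjusted p under 0.05 there were 7 (29.2%; 2 higher, both of Fermt3, and 5 lower, of Itgb2, Itgax, Itgb1 and Tln1), against 17.0% of all probe sets. In 5 of the 24 (20.8%; 3 higher and 2 lower) the arrays of the 2 groups did not overlap, against 10.8% of all probe sets. Several of these probe sets measure 1 gene and are not independent. The median difference of the 24 was -0.08, against 0.00 for all probe sets. In bulk samples, fewer cells of a type and less RNA per cell cannot be told apart.

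**Figure D1:**
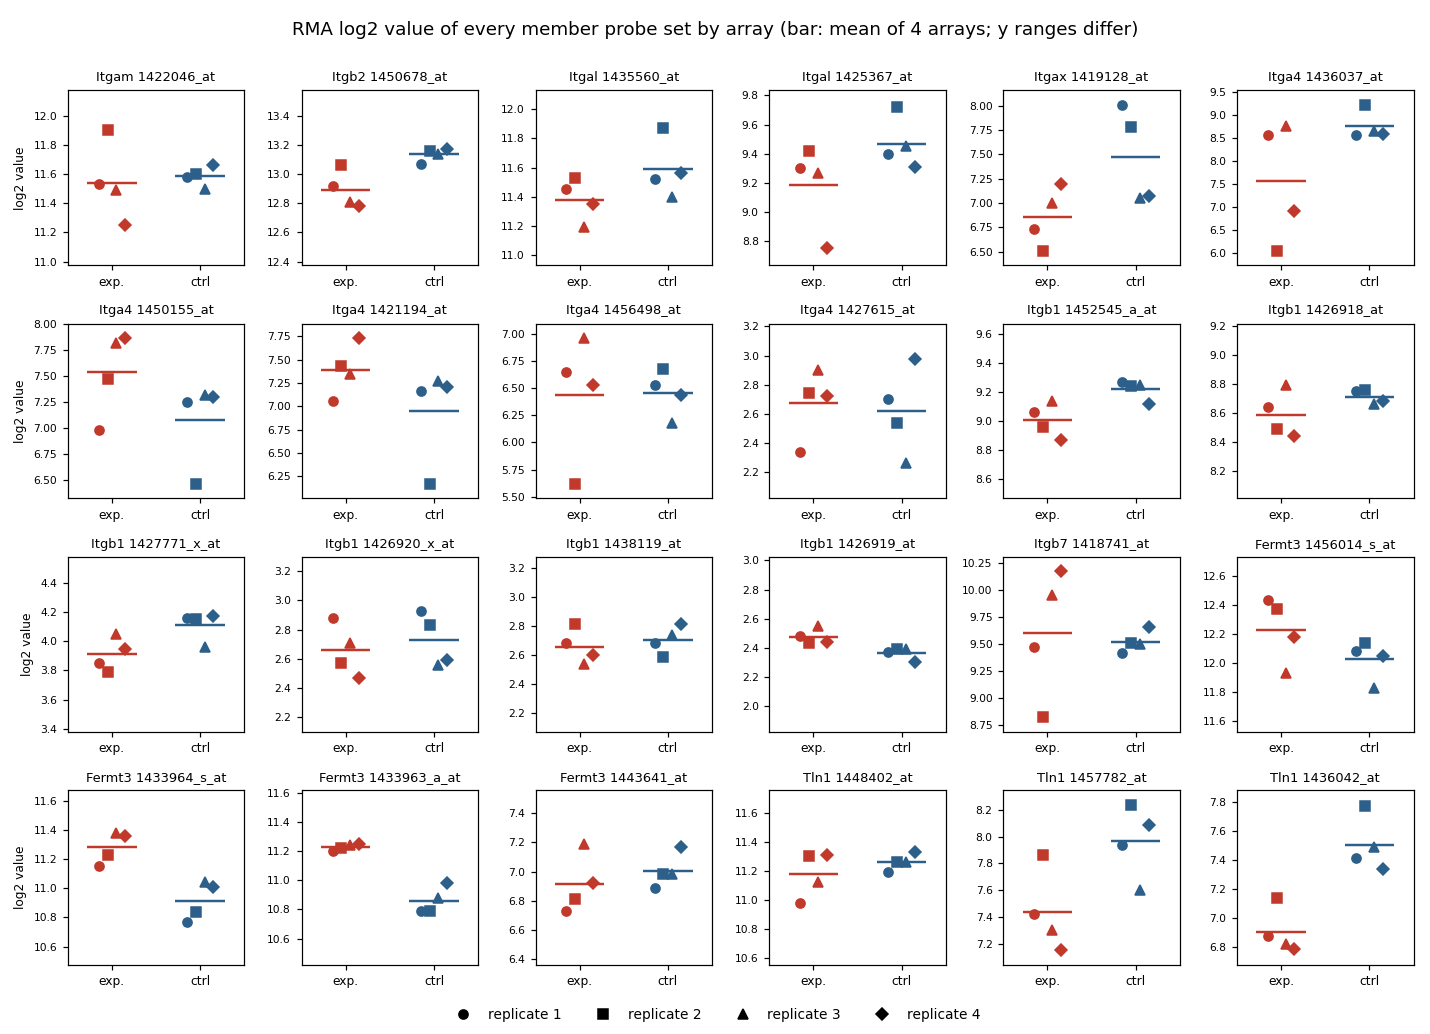
RMA log2 value (vertical axis, scaled separately in each panel) of the 24 probe sets of the 9 genes in each array, experimental (exp., red) left of control (ctrl, blue); symbols mark the replicate number and bars the mean of 4 arrays. Fermt3 1433963_a_at lies at 11.20 to 11.25 in experimental arrays and 10.79 to 10.98 in control arrays, while Itgam overlaps between the groups.

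Itgam, the alpha chain of Mac-1 and the sort marker, was at nearly the same level in both groups. Its single probe set 1422046_at read 11.53, 11.90, 11.49 and 11.25 in experimental replicates 1 to 4 and 11.58, 11.60, 11.50 and 11.66 in control replicates 1 to 4. The experimental arrays included both the highest and the lowest value, so the groups overlapped, with SDs of 0.27 and 0.07. The difference was -0.04 ± 0.13 (SE, adjusted p = 0.911), with a 95% confidence interval of -0.34 to 0.25. It was 0.12 in replicates 1 and 2, and -0.21 in replicates 3 and 4. The cells had been selected on its protein, so this is the level of the transcript within the sorted cells.

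Itgb2, the beta chain shared by Mac-1, LFA-1 and CD11c/CD18, read 12.92, 13.06, 12.81 and 12.78 in experimental arrays, against 13.07, 13.16, 13.14 and 13.17 in control arrays. Every experimental array lay below every control array, the closest at 13.06 and 13.07. The difference of -0.24 ± 0.09 (84.7% of the control level; 95% confidence interval -0.45 to -0.03) did not pass (adjusted p = 0.219). In replicates 1 and 2 it was -0.12, and in replicates 3 and 4 it was -0.36.

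Itgal, the alpha chain of LFA-1, had 2 probe sets that moved alike. The brighter, 1435560_at, read 11.45, 11.53, 11.19 and 11.35 in experimental arrays, against 11.52, 11.87, 11.40 and 11.56 in control arrays. Both groups spanned a common range, and the difference was -0.21 ± 0.12 (adjusted p = 0.441). The dimmer, 1425367_at, differed by -0.29 ± 0.16 (adjusted p = 0.391), with experimental replicate 4 lowest at 8.75. Neither interval, -0.48 to 0.07 and -0.63 to 0.06, excluded 0 or a fall of about the size of that of Itgb2.

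Itgax, the CD11c chain of dendritic cells and some monocytes, gave a different picture in the 2 styles of sample code. Probe set 1419128_at read 6.73, 6.51, 7.0 and 7.20 in experimental arrays, against 8.01, 7.78, 7.05 and 7.07 in control arrays. Control replicates 1 and 2 stood above all other arrays and experimental replicates 1 and 2 below all others, while replicates 3 and 4 of both groups lay together. The pooled difference was -0.62 ± 0.24 (adjusted p = 0.219), made of -1.28 in replicates 1 and 2, against 0.04 in replicates 3 and 4. The interaction of code style and group had an unadjusted p of 1.5e-04 and an adjusted p of 0.196 in limma, so a difference between the styles was not called. An unadjusted p under 0.05 for this interaction was found in 2 of the 24 probe sets, Itgax and Itgb7, against 7.97% of all probe sets, and the adjusted p passed in 0 of the 24 and in 5 of all 45037.

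Markers of other cell types are given beside Itgax because several shifted. Of the 10 monocyte and macrophage markers none passed the threshold. At an unadjusted p under 0.05, 3 of them were lower, against 9.80% of all genes. The mean log2 level of the list was 8.84 to 9.69 in experimental arrays and 9.36 to 9.92 in control arrays. Averaged over the list, the difference was -0.88 in the first style, of replicates 1 and 2, and 0.14 in the other. Of 7 measured dendritic cell markers, 3 fell: the lectin gene Cd209a (-2.37 ± 0.32, adjusted p = 0.00794), Siglech (-1.29 ± 0.20, adjusted p = 0.0142) and the chemokine receptor gene Ccr9 (-1.24 ± 0.23, adjusted p = 0.0239). The rest did not pass and differed in sign: Flt3 (-0.39 ± 0.13), Zbtb46 (0.26 ± 0.12), Xcr1 (0.25 ± 0.16) and Bcl11a (0.03 ± 0.18). The mean level of that list was 5.39 to 5.79 in experimental arrays, against 6.20 to 6.37 in control arrays, with differences of -0.63 and -0.73 within the 2 styles. Within replicates 1 and 2 alone, Itgax did not pass (adjusted p = 0.0504), and the lists were not tested within a style. The part of these cells in the value of Itgax was not tested.

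**Figure D2:**
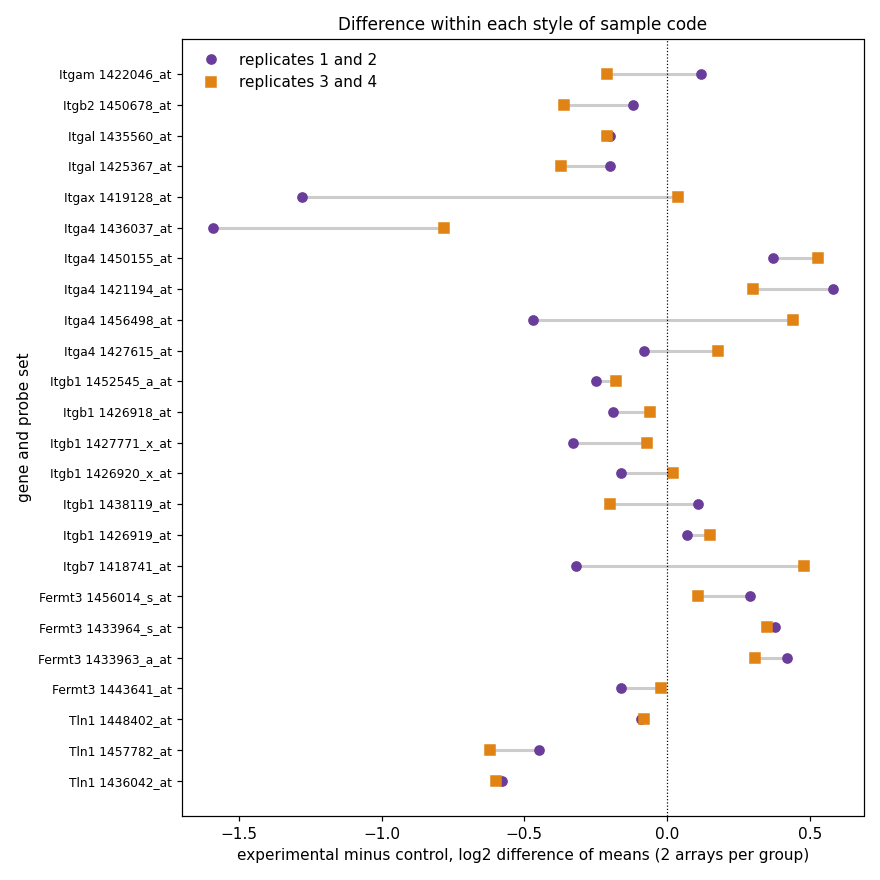
Difference of group means (experimental minus control, log2, horizontal axis) for each of the 24 probe sets (vertical axis), computed within replicates 1 and 2 (purple circles) and within replicates 3 and 4 (orange squares), 2 arrays per group each. Itgax lies at -1.28 and 0.04 and Itgb7 at -0.32 and 0.48, while Tln1 1436042_at lies at -0.58 and -0.60.

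Itga4, the alpha chain of VLA-4, was measured by 5 probe sets that disagreed. The brightest, 1436037_at, read 8.57, 6.05, 8.76 and 6.92 in experimental arrays, against 8.57, 9.22, 8.65 and 8.59 in control arrays. Experimental replicates 2 and 4 lay more than 1 unit under all others, and replicates 1 and 3 lay within the range of the controls. The difference was -1.19 ± 0.53 (adjusted p = 0.297), and -0.68 without experimental replicate 2 (adjusted p = 0.403). In replicates 1 and 2 it was -1.59, and in replicates 3 and 4 it was -0.78.

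Probe sets 1450155_at and 1421194_at of Itga4 had positive differences, 0.45 ± 0.24 (adjusted p = 0.381) and 0.44 ± 0.24 (adjusted p = 0.398). In control replicate 2, where 1436037_at was at its highest, they were at their lowest, 6.46 and 6.17, against 7.25 to 7.31 and 7.16 to 7.27 in the other control arrays. As a description over the 8 arrays, which share the group difference, 1450155_at and 1421194_at correlated at r = 0.93 with each other and at -0.53 and -0.64 with 1436037_at. Of the remaining pair, 1456498_at differed by -0.02 ± 0.25 (-0.47 and 0.44 in the 2 styles) and 1427615_at, far below the array medians at 2.26 to 2.98, by 0.05 ± 0.17. The sign of the difference for Itga4 thus depended on the probe set.

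Itgb1, the beta chain of VLA-4 and of most adhesion receptors for extracellular matrix, had 6 probe sets. The brightest, 1452545_a_at, read 9.06, 8.96, 9.14 and 8.87 in experimental arrays, against 9.27, 9.24, 9.25 and 9.12 in control arrays. The groups overlapped only through experimental replicate 3 and control replicate 4, and the difference of -0.21 ± 0.09 (86.3% of the control level) did not pass (adjusted p = 0.273). The next, 1426918_at, differed by -0.12 ± 0.10 (adjusted p = 0.586). The other four lay below the array medians, between 2.30 and 4.17, with differences of -0.20 to 0.11. Of these, 1426919_at was higher in every experimental array (2.43 to 2.55, against 2.30 to 2.39), a difference of 0.11 ± 0.08 at a level where little signal is measured (adjusted p = 0.531).

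Itgb7, the beta chain that pairs with Itga4 in gut-homing leukocytes, spread widely among the experimental arrays. Probe set 1418741_at read 9.47, 8.82, 9.95 and 10.17 there, against 9.41, 9.51, 9.50 and 9.65 in control arrays. The experimental arrays lay on both sides of the narrow control range, with SDs of 0.60 and 0.10. The difference was 0.08 ± 0.25 (adjusted p = 0.906), with a 95% confidence interval of -0.48 to 0.64. Within replicates 1 and 2 it was -0.32, within replicates 3 and 4 it was 0.48, and without experimental replicate 2 it was 0.35 (adjusted p = 0.282).

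Fermt3, which encodes the kindlin of blood cells, had the lowest adjusted p among the positive differences of the 9 genes, none past the threshold. Probe set 1433963_a_at read 11.20, 11.22, 11.24 and 11.25 in experimental arrays, against 10.79, 10.79, 10.88 and 10.98 in control arrays. The groups did not overlap and the experimental arrays were almost identical, for a difference of 0.37 ± 0.08 (1.29-fold, 95% confidence interval 0.18 to 0.55, adjusted p = 0.0529).

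Probe set 1433964_s_at of Fermt3 read 11.15, 11.23, 11.38 and 11.36 in experimental arrays, against 10.77, 10.84, 11.04 and 11.01 in control arrays. These did not overlap either, and the difference was 0.36 ± 0.10 (1.29-fold, adjusted p = 0.0981). The brightest probe set, 1456014_s_at, differed by 0.20 ± 0.13 (adjusted p = 0.471) with overlap, and the dimmest, 1443641_at, by -0.09 ± 0.12 (adjusted p = 0.753). With code style as a block, 1433963_a_at and 1433964_s_at passed in limma (adjusted p = 0.0306 and 0.0299), in a fit that called 5.73% of all probe sets. With replicate number as a block, neither passed (adjusted p = 0.0609 and 0.0573). Within the 2 styles they differed by 0.42 and 0.31, and by 0.38 and 0.35.

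Tln1, which encodes the link between beta chains and the actin cytoskeleton, had 3 probe sets, and 1 of them fell in experimental samples. Probe set 1436042_at read 6.88, 7.14, 6.82 and 6.79 in experimental arrays, against 7.41, 7.77, 7.49 and 7.34 in control arrays. Every experimental array lay below every control array, and the level fell by a difference of -0.59 ± 0.12 (66.3% of the control level, 95% confidence interval -0.87 to -0.32, adjusted p = 0.0371). It was -0.58 in replicates 1 and 2, and -0.60 in replicates 3 and 4.

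The call for Tln1 1436042_at depended on the arrays used: among the 8 fits that leave out 1 array it passed only without experimental replicate 2 (adjusted p = 0.0236), and the others gave 0.0689 to 0.10. Probe set 1457782_at read 7.42, 7.86, 7.30 and 7.15, against 7.94, 8.24, 7.60 and 8.09, and did not pass (-0.54 ± 0.18, adjusted p = 0.156). The brightest probe set, 1448402_at, at 10.98 to 11.31 in experimental arrays and 11.19 to 11.33 in control arrays, differed by -0.08 ± 0.10 (adjusted p = 0.726; 95% confidence interval -0.31 to 0.14). Its interval does not reach the difference of -0.59 at 1436042_at, so the call rests on 1 of 3 probe sets. Over the 8 arrays, 1436042_at and 1457782_at correlated at r = 0.85 with each other and at 0.40 and 0.38 with 1448402_at. Tln1 and E2f2 both lie on chromosome 4, with 793 protein-coding genes between them in RefSeq GRCm38.p6.

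Talin-1 and kindlin-3 are also platelet proteins, and some platelet markers shifted between the groups. Of 7 measured megakaryocyte and platelet markers, 3 fell, the platelet factor gene Pf4 (-1.49 ± 0.12, adjusted p = 0.00113), the chemokine gene Ppbp (-2.24 ± 0.34, adjusted p = 0.0117) and the tubulin gene Tubb1 (-1.09 ± 0.19, adjusted p = 0.0219). The rest did not pass and differed in sign: Itga2b (-0.49 ± 0.11), Gp1bb (-0.41 ± 0.17), Gp9 (0.24 ± 0.18) and Gp6 (0.05 ± 0.11). The mean level of that list was 5.59 to 5.70 in experimental arrays, against 6.14 to 6.68 in control arrays. B cell markers, whose cells carry Itgal, Itga4 and Itgb1, fell at 4 of 7: Cd79a (-1.57 ± 0.16, adjusted p = 0.00258), Ms4a1 (-2.82 ± 0.42, adjusted p = 0.0116), Blnk (-1.45 ± 0.25, adjusted p = 0.0190) and Cd79b (-1.31 ± 0.24, adjusted p = 0.0233). Their mean level was 5.58 to 6.33 in experimental arrays and 6.94 to 7.69 in control arrays. With the replicate block, 5 B cell and 4 platelet markers were lower, Ebf1 (adjusted p = 0.0124) and Itga2b (adjusted p = 0.0357) having been added. That fit called 6.18% of all genes in either direction, against 3.47% without the block. Whether these cells bear on the values of Tln1, Fermt3, Itgal, Itga4 or Itgb1 was not tested.

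Of the other marker lists, the 8 measured neutrophil markers had a mean level of 12.97 to 13.24 in experimental arrays and 13.28 to 13.41 in control arrays, all above the array medians, and 1 of them fell, the G-CSF receptor gene Csf3r (-0.65 ± 0.09, adjusted p = 0.00943). Among 7 eosinophil, basophil and mast cell markers 2 rose, Epx (0.91 ± 0.12, adjusted p = 0.00672) and Siglecf (1.28 ± 0.25, adjusted p = 0.0326), with a mean level of 7.14 to 7.70 against 7.14 to 7.38. In the same list Ms4a2 was lower without overlap but did not pass (-0.77 ± 0.18, adjusted p = 0.0558). Mcpt8 (-0.46 ± 0.21), Prg2 (-0.17 ± 0.13), Cpa3 (0.09 ± 0.24) and Il5ra (0.09 ± 0.12) did not pass either. Averaged over that list, the difference was 0.46 in replicates 1 and 2, and -0.18 in replicates 3 and 4. Of 7 T and NK cell markers and 6 erythroid markers none passed. At an unadjusted p under 0.05, 4 and 1 of them were higher, against 9.08% of all genes. The mean level of the T and NK cell markers was 7.32 to 8.31 against 6.85 to 8.10. For the erythroid markers it was 7.38 to 8.73 against 7.39 to 7.73. With the replicate block, which called 6.18% of all genes, 2 of the T and NK cell markers and 1 of the erythroid markers passed, all higher.

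**Figure D3:**
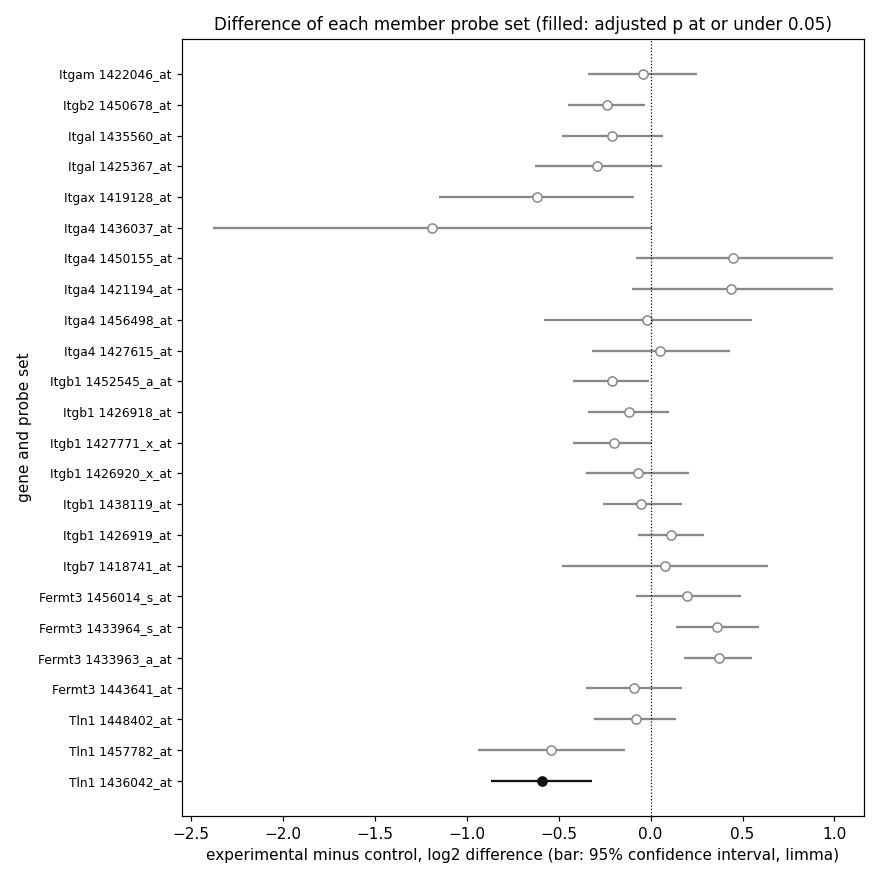
Experimental minus control difference (log2, horizontal axis) of each of the 24 probe sets (vertical axis) with its 95% confidence interval from limma, 4 arrays per group; filled black points passed at adjusted p 0.05. Tln1 1436042_at at -0.59 is the 1 filled point, the Fermt3 probe sets 1433963_a_at and 1433964_s_at lie at 0.37 and 0.36, and Itga4 1436037_at has the widest interval, -2.38 to 0.01.

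The 8 other genes, each by its brightest probe set, were compared with the sort marker in the same array. Their values relative to it overlapped between the groups for each gene. Other probe sets, Tln1 1436042_at among them, were not part of this comparison. For Itgb2, the log2 value minus that of Itgam was 1.39, 1.17, 1.32 and 1.53 in experimental arrays and 1.49, 1.56, 1.64 and 1.51 in control arrays, a difference of -0.20 (exact permutation p = 0.0857, two-sided; 0.411 after adjustment over 8 comparisons). The groups overlapped through experimental replicate 4. The exact permutation p of Itgb2 was the smallest of the 8 brightest probe sets. The others differed by -1.14 for Itga4 to 0.24 for Fermt3, with exact permutation p of 0.171 to 0.886. None passed, which the design largely fixes: the smallest p that 4 against 4 arrays allow is 0.0286, so that 1 gene alone could not go below an adjusted p of 0.229, and 5 genes would have to reach the smallest p together to pass.

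The genes most like Itgam across the arrays were sought among 10669 genes above the median level, leaving out clone-type symbols, by Pearson's r over the 8 arrays. The 5 highest were Clec5a (r = 0.941), which encodes a myeloid C-type lectin receptor, Itgb2l (0.935), a gene related to Itgb2, Svs5 (0.931), Rab3d (0.924), a small GTPase of secretory vesicles, and Srrm4 (0.923). Svs5 and Srrm4 averaged only 5.17 and 5.83 over the 8 arrays, close to the array medians, so whether they are expressed in these cells is unknown. Clec5a read 10.59, 11.21, 10.52 and 10.13 in experimental arrays, against 10.69, 10.88, 10.62 and 10.60 in control arrays. Itgb2l read 11.61, 12.02, 11.63 and 11.12, against 11.81, 11.80, 11.46 and 11.75. Both were highest in experimental replicate 2 and lowest in experimental replicate 4, as Itgam was. The r was not recomputed without these arrays, and 16 genes had an r above 0.9.

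Among the 9 genes themselves, Itgb2 (r = 0.61) and Itgal (0.44) followed Itgam most closely, and Itgb7 ran opposite to it (r = -0.90 over 8 arrays). Itgb7 was lowest, 8.82, in experimental replicate 2, where Itgam was highest, and highest, 10.17, in experimental replicate 4, where Itgam was lowest. The control arrays did not show this: both genes were highest in control replicate 4, Itgam at 11.66 and Itgb7 at 9.65. Itgax (-0.27), Itga4 (-0.23), Itgb1 (0.14), Tln1 (0.14) and Fermt3 (0.31), each by its brightest probe set, lay between. These values are descriptions over arrays that share their group and code style.

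**Figure D4:**
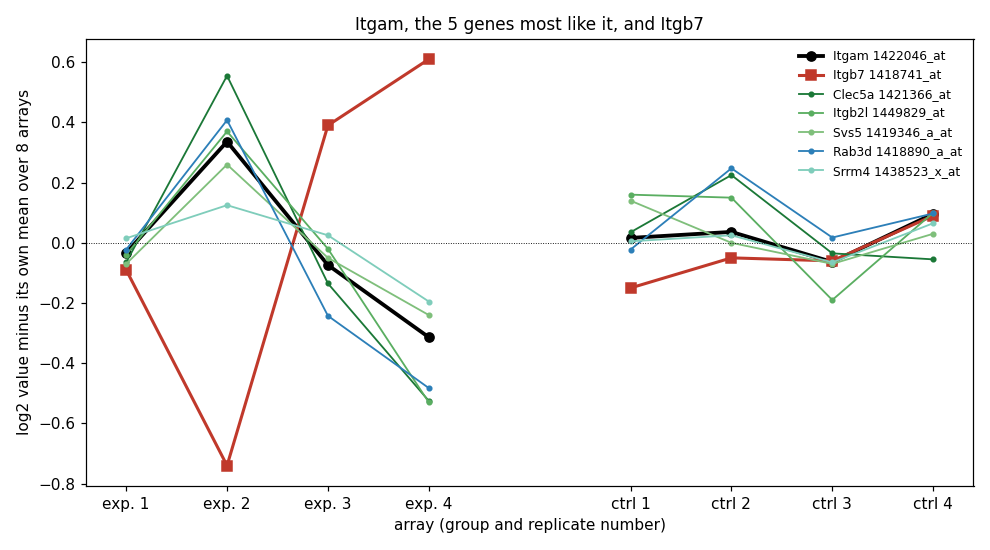
Log2 value minus the mean of its own 8 values (vertical axis) for Itgam (black), Itgb7 (red) and the 5 genes with the highest Pearson's r to Itgam (green and blue), in each array (horizontal axis), experimental left of control; lines only join the points of 1 probe set. Itgam and the 5 genes peak in experimental replicate 2 and are lowest in experimental replicate 4, and Itgb7 does the reverse.

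Genes that work with integrins were taken from 7 lists (other subunits, activators, inhibitors, outside-in signalling, ligands, selectins and rolling, tetraspanins and shedding), each gene by its brightest probe set. Of 106 measured, 2 fell, 0 rose, and the median difference was -0.07, against 3.47% of all genes called in either direction and a median of 0.01. With replicate number as a block, 6 passed (2 higher and 4 lower), against 6.18% of all genes. At an unadjusted p under 0.05 without the block, 5 were higher and 25 lower, against 9.08% of all genes higher and 9.80% lower.

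Other integrin subunits numbered 17, of which 0 passed, with 1 higher and 4 lower at an unadjusted p under 0.05 and a median of 0.10. The platelet subunit gene Itga2b read 6.28, 6.23, 6.47 and 6.47 in experimental arrays, against 6.65, 6.85, 6.81 and 7.08 in control arrays, without overlap (-0.49 ± 0.11, adjusted p = 0.0568, and 0.0357 with the replicate block). It is also in the platelet marker list. The brightest of the list, Itgav (-0.40 ± 0.10, adjusted p = 0.0821) and Itga6 (0.40 ± 0.14, adjusted p = 0.173), had differences of opposite sign.

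Among ligands, Vwf alone of 16 fell. It encodes von Willebrand factor, a product of endothelium and megakaryocytes, and read 3.94, 3.41, 3.79 and 3.67 in experimental arrays, against 4.34, 4.83, 4.65 and 4.43 in control arrays (-0.86 ± 0.14, adjusted p = 0.0174). These levels are below the array medians. F11r, which encodes the junctional adhesion molecule bound by LFA-1, read 5.57, 5.69, 5.91 and 6.56, against 4.67, 4.87, 5.10 and 5.30, with no overlap (0.95 ± 0.22, adjusted p = 0.0546), and passed with the replicate block (adjusted p = 0.00635). The ligand genes of LFA-1 and VLA-4, Icam1 (0.32 ± 0.20, adjusted p = 0.466) and Vcam1 (-0.51 ± 0.45, adjusted p = 0.621), did not pass.

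Among 11 genes of tetraspanins and shedding enzymes, Cd9, a tetraspanin that associates with integrins, fell. It read 11.08, 11.46, 10.81 and 10.84 in experimental arrays, against 11.59, 11.88, 11.69 and 11.68 in control arrays, with no overlap (-0.66 ± 0.15, adjusted p = 0.0498). Among the fits that leave out 1 array it passed in 1 of 8 (adjusted p = 0.0121 to 0.151).

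Genes of signalling downstream of integrins had 0 of 28 past the threshold, with 10 lower and 0 higher at an unadjusted p under 0.05 (9.80% and 9.08% of all genes) and a median of -0.18, against 0.01 for all genes. The brightest were the adaptor gene Tyrobp, 13.21, 13.33, 13.11 and 13.19 in experimental arrays, against 13.50, 13.63, 13.43 and 13.48 in control arrays (-0.30 ± 0.09, adjusted p = 0.125), and Coro1a, an actin regulator (-0.20 ± 0.09, adjusted p = 0.297). For both genes the 2 groups did not overlap.

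Of 16 activators 0 passed (1 higher and 2 lower at an unadjusted p under 0.05), with a median of -0.16. Rap1b, the GTPase upstream of talin-1, differed by -0.25 ± 0.11 (adjusted p = 0.272) and Gnai2 by -0.07 ± 0.11 (adjusted p = 0.787). Of 7 inhibitors 0 passed (0 higher and 1 lower at an unadjusted p under 0.05), with Flna, which competes with talin-1 for beta tails, at -0.12 ± 0.10 (adjusted p = 0.604) and Sipa1 at 0.14 ± 0.11 (adjusted p = 0.581).

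Of 11 selectin and rolling genes 0 passed (1 higher and 3 lower at an unadjusted p under 0.05), with Cd44 at -0.29 ± 0.13 (adjusted p = 0.283) and the selectin ligand gene Selplg at -0.02 ± 0.12 (adjusted p = 0.950). With the replicate block 2 of them passed: Selp, which encodes P-selectin (0.77 ± 0.28 and adjusted p = 0.203 without the block, 0.0317 with it), and the sialyltransferase gene St3gal6 (-0.75 ± 0.19 and adjusted p = 0.0783 without the block, 0.0333 with it).

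**Figure D5:**
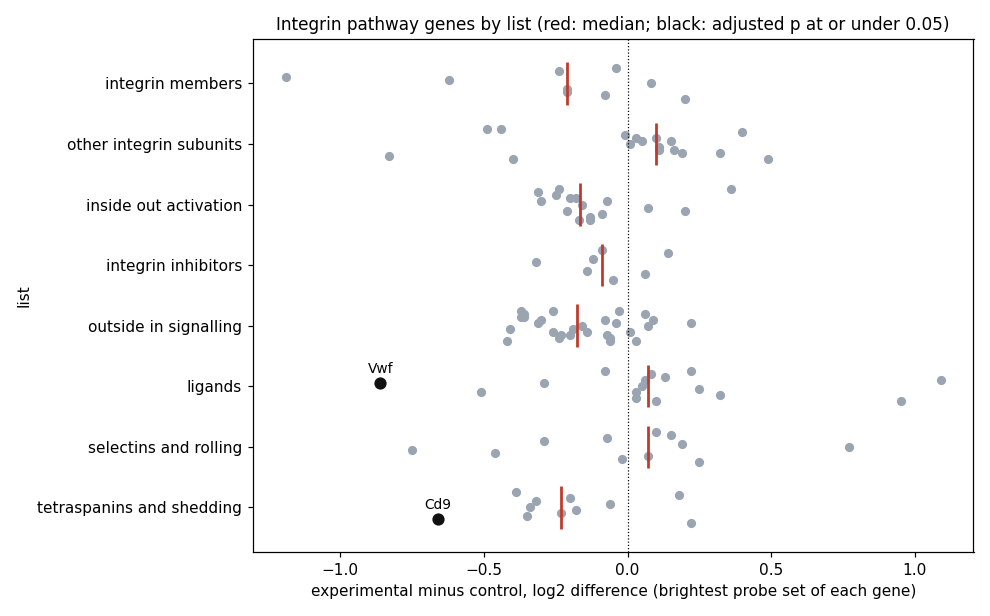
Experimental minus control difference (log2, horizontal axis) of each gene by its brightest probe set, in the 9 members and the 7 lists of integrin pathway genes (vertical axis; vertical jitter has no meaning); red bars are medians and black points passed at adjusted p 0.05. Vwf at -0.86 and Cd9 at -0.66 are the 2 black points, and the 28 signalling genes have a median of -0.18.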

How the data were processed

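The deposited table holds 1 log2 value per probe set and array; per the submitters' processing notes the authors used RMA (no version), which corrects background, normalizes by quantiles and summarises probes, and makes array medians alike. Whether all 8 arrays were processed together, and detection calls, are not given in the sources used here. Of 45101 rows, 64 Affymetrix control probe sets were left out. Of the 45037 others, the platform annotation gave 34945 a single gene symbol, gave 932 more than 1 and left 9160 unnamed; 34741 were matched to RefSeq by gene identifier.

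Differences were fitted with limma 3.58.1 in R 4.3.3 (lmFit, eBayes, group as the only term) and adjusted by Benjamini-Hochberg over all probe sets. Single values relative to Itgam, each gene by its brightest probe set, were tested by a two-sided exact permutation test. The fit was tested on simulated data. A gene outside the 9 is represented by its brightest probe set. Named genes are all 9 members, list genes with a call (or, in lists without one, the 2 brightest) and the 5 most like Itgam. F11r, Itga2b, Selp, St3gal6, Icam1, Vcam1 and Ebf1 were chosen after their values were seen. So were the markers without a call that are named for dendritic cells, for platelets and for eosinophils, basophils and mast cells. The members and lists were chosen with earlier results of these data known.

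Same-numbered arrays of the 2 groups deviated together from their group means (r = 0.20 to 0.26 across probe sets for each of 4 pairs). Replicate number was therefore used as a block in an alternative fit, while the main fit has no block. Arrays sharing only the code style correlated at 0.14 to 0.26 and those of the other style at -0.27 to -0.13. Deviations from a group mean cancel within the group, so positive values for some pairs force negative values for others. The ranges for the same number and for the same style overlap, so these values do not establish pairing by number. The labels do not state a pairing. Alternatives were other scalings, filters on dim probe sets, variance models, array weights, blocks, other rules for the probe sets of a gene, and leaving out arrays. The number of arrays limits the precision.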

Additional observations from a re-analysis of the deposited data

Results flagged for a closer look

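In 5 of 48 groups of 4 arrays (24 probe sets in each group), 1 array stood far from the other three, with a gap of over 0.829 of the whole range; chance flags about 1 in 20 groups. Control replicate 2 accounted for 3 of them, all of Itga4. It read 9.22 at 1436037_at, above 8.57 to 8.65 in the other control arrays, and 6.46 at 1450155_at and 6.17 at 1421194_at, below 7.25 to 7.31 and 7.16 to 7.27. The other two were of Itgb1: control replicate 4 read 9.12 at 1452545_a_at, below 9.24 to 9.27, and control replicate 3 read 3.96 at 1427771_x_at, below 4.15 to 4.17.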

How the results depend on the processing

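The number of member probe sets past the threshold, 1, was 0 with quantile normalization, with inferred sex (read from Xist and Eif2s3y) as a block and within replicates 1 and 2 or replicates 3 and 4 alone, 2 with either filter on dim probe sets (Tln1 lower and Fermt3 1433963_a_at higher), 3 with code style as a block, and 0 to 2 without 1 array (2 without experimental replicate 2 and 0 without any other). It was 1 with the replicate block, which changed no call of a member probe set. With the variance trend the 1 was Fermt3 1433963_a_at (adjusted p = 0.0497) and not Tln1 (0.0527). Over 20 alternatives Tln1 1436042_at passed in 8 and Fermt3 1433963_a_at in 4. Of 470 single values of members under the alternatives, 0 called values changed sign and 18 uncalled ones did. The count of pathway genes, 2, was 1 with median centring, 4 with quantile normalization, 6 with the replicate block or the code style block, 7 when probe sets were averaged per gene, 4 with the brightest probe set without a suffix, 0 within replicates 1 and 2 and 4 within replicates 3 and 4, and 0 to 6 without 1 array (6 without experimental replicate 2, 0 without control replicate 2 and 1 without any other). Of the differences from Itgam, 0 passed in any setting, which the number of arrays largely fixes in every setting, all 8 arrays included; leaving out 1 array gave 0 to 0. The cause of these shifts was not tested. Probe sets below the array medians, 5 of the 24, carry little signal, and how far each probe set lies above background is unknown here.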

Other observations

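The SD over the 4 arrays was larger in the experimental than in the control group in 15 of the 24 probe sets, against 63.9% of all probe sets. By Xist and Eif2s3y, 3 experimental and 2 control samples were female, and 1 experimental and 2 control samples were male. In the RefSeq annotation of chromosome 7, Itgam, Itgax and Itgad are consecutive protein-coding genes (0 between neighbours), with 35 between Itgal and Itgam; the differences of these neighbours measured here were -0.04 for Itgam, -0.62 for Itgax and -0.21 for the brighter probe set of Itgal, all with overlap between the groups.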
